A study of Mus musculus with 18 samples.

Results

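Autophagy, mitophagy and lysosome genes were followed through 3 mouse tissues. The set is a list of 39 gene names, all of which matched an identifier among the 53465 genes of the deposited count tables. They were chosen by function: 7 genes of the ATG8 family and the cargo receptors, 5 of initiation, 8 of conjugation and membrane binding, 4 of mitophagy, 2 transcription factors, 10 of the lysosomal membrane and lumen, and 3 of the proton pump. Bulk RNA sequencing covered skeletal muscle (SKM), white adipose tissue (WAT) and brown adipose tissue (BAT) of C57BL/6J mice. In each tissue 3 libraries came from mice given quercetin, a plant flavonol, at 0.125 mg/kg by oral gavage in 100 µL of 10% PEG400 in PBS, and 3 from mice given that vehicle alone, so that every mouse received PEG400. The labels place male animals of 14 months at the start of weekly treatment in the lifespan experiment alone. For the mice behind these libraries the labels give no age, sex, treatment time or fat depot. They also do not say whether the libraries of a group came from separate animals, so a p-value reflects the spread among libraries, which may be technical.

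Autophagy encloses cytoplasm in a double membrane, the autophagosome, and delivers it to the lysosome. ULK kinases and a lipid kinase complex start the membrane, a conjugation machinery of ATG proteins couples ATG8 proteins (LC3 and GABARAP) to it, and receptors such as p62 bind cargo to those ATG8 proteins. Mitophagy does the same for mitochondria, either through receptors on the outer membrane (BNIP3, NIX, FUNDC1) or through the kinase PINK1. The lysosome digests the load with hydrolases at the acid pH that its proton pump, the V-ATPase, maintains. The factors TFEB and TFE3 bind an E-box element in promoters of many of these genes, and in muscle FoxO factors raise autophagy genes together with the atrophy ligases Trim63 and Fbxo32 during fasting and wasting.

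Promoter sequence was searched for the elements of those factors. The RefSeq table of GRCm38.p6 held a window of 250 bases before the start for 32 of the 39 genes; Atg12, Atg16l1, Atp6v1h, Becn1, Bnip3l, Ctsb and Map1lc3a had none. The E-box CACGTG, which reads the same on both strands, stood in 10 of the 32 genes (31.2%) and in 6.86% of the 27025 genes of the whole table. The genes that held it were Atg3, Atg5, Atg7, Atp6v1a, Bnip3, Ctsa, Ctsd, Ctsl, Lamp1 and Mcoln1. The longer TCACGTG, which contains that E-box and was searched on both strands, stood in 7 of 32 (21.9%) and in 3.58% of all genes. The forkhead element was searched on both strands only as GTAAACA, which was in none of the 32 genes and in 3.54% of all genes. Variants of it were not searched. The Gabarapl1 window printed below holds ATAAACA, which differs from it in the first base, so a forkhead element is not excluded. Of the 36 windows of the set, 12 precede a RefSeq start that lies downstream and are wholly inside the gene as GENCODE annotates it, among them those that hold the E-box in 4 of the 10 genes (Atg7, Atp6v1a, Ctsa and Ctsl); they were counted as the table gives them. These are matches of letters in a short window and not measured sites. Windows are printed for the gene with the most E-boxes (Lamp1, with 4), 3 genes whose vehicle and quercetin values did not overlap in muscle or brown fat (Bnip3, Gabarapl1 and Neu1) and the cargo receptor Sqstm1, without bases inside the annotated gene. Capitals mark CACGTG, with its flanking T or A where the longer element matched.
Lamp1, chr8:13158911-13159160, plus strand: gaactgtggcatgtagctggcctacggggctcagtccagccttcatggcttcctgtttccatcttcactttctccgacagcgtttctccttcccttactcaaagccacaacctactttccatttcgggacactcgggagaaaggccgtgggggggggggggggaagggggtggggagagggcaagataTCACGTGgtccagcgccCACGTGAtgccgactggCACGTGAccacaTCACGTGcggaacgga
Bnip3, chr7:138909520-138909756, minus strand: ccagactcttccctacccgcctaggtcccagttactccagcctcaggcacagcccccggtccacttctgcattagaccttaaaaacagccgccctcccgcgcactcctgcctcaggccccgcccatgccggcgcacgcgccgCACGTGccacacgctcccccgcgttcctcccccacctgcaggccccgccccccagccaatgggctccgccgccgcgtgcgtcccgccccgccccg
Gabarapl1, chr6:129532942-129533159, plus strand: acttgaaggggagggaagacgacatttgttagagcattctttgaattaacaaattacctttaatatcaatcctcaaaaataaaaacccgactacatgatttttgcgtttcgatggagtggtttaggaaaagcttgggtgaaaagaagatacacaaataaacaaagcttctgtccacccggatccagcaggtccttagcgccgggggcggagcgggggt
Neu1, chr17:34931003-34931252, plus strand: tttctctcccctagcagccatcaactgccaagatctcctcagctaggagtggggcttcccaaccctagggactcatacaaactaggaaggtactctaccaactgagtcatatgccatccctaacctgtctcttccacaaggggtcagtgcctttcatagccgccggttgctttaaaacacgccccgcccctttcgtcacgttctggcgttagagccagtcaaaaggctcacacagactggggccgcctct
Sqstm1, chr11:50210828-50211070, minus strand: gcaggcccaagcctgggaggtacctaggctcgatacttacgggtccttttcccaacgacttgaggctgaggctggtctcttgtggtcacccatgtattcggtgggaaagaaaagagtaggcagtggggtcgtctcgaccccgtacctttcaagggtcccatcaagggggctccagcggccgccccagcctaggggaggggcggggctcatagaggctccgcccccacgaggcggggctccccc
Lamp1 thus carried its E-boxes from 61 to 15 bases before the start, Bnip3 carried 1, and the other three carried none in the bases shown.

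Library totals lay between 8436308 and 12311345 counts, and all 39 genes passed the filter on low counts in each tissue. Levels are CPM, read counts scaled to a common depth over the 18 libraries, gene positions are those of GRCm38, and fold changes are log2, quercetin minus vehicle, from an edgeR fit of each tissue. Several libraries stood apart. Summed skeletal muscle markers were 75377 to 135733 CPM in SKM, but also 33762 CPM in BAT quercetin 3, where brown adipocyte markers were at 2341 CPM against 7814 to 9716 in the other BAT libraries. BAT vehicle 1 held 5273 CPM of the muscle markers and the remaining BAT libraries 5.91 to 1957. SKM quercetin 2 held 24568 CPM of gland epithelium markers, against at most 34.9 in other muscle libraries. In white fat, adipocyte markers ran from 789.7 CPM in vehicle 2 to 47599 CPM in vehicle 1. WAT vehicle 2 also held 1211 CPM of muscle markers, against 13.9 to 83.9 in the other white fat libraries. SKM vehicle 3 held 10701 CPM of adipocyte markers, against 1024 to 5780 in the other muscle libraries. The 3 libraries left out below for markers of another tissue are SKM quercetin 2, WAT vehicle 2 and BAT quercetin 3. SKM vehicle 3 and BAT vehicle 1 stayed in those fits. B cell markers summed to 1.17 to 3.02 CPM in WAT vehicle 1 and quercetin 2, and to 545 to 2954 CPM in the other 4. Those 2 libraries and SKM quercetin 3 are the 3 of flow cell H7GKJDSXX, so flow cell and lymphocyte RNA cannot be told apart in WAT. In bulk samples, fewer cells of a type and less RNA per cell cannot be told apart either.

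The vehicle 1 libraries of muscle and white fat stood apart for the set itself. SKM vehicle 1 was the highest of the 6 muscle libraries for 31 of the 39 genes, against 4495 of the 13562 genes tested, and its median deviation from the muscle mean was 0.63 on the log2 scale. WAT vehicle 1 was the highest for 21 of 39 (3741 of 14919 genes), with a median deviation of 0.36. BAT vehicle 1 was the highest for 13 of 39 (3148 of 13274 genes) and deviated by -0.0099; in BAT the library that stood lowest was quercetin 3, for 22 of 39 (3790 of 13274 genes). In SKM vehicle 1 the sum of Trim63 and Fbxo32 was 14704 CPM, against 681 to 1299 in the other muscle libraries. Macrophage markers there were at 143 CPM against 403 to 849. The part of these differences in the results was not tested, and results are given with and without the vehicle 1 library.

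**Figure D1:**
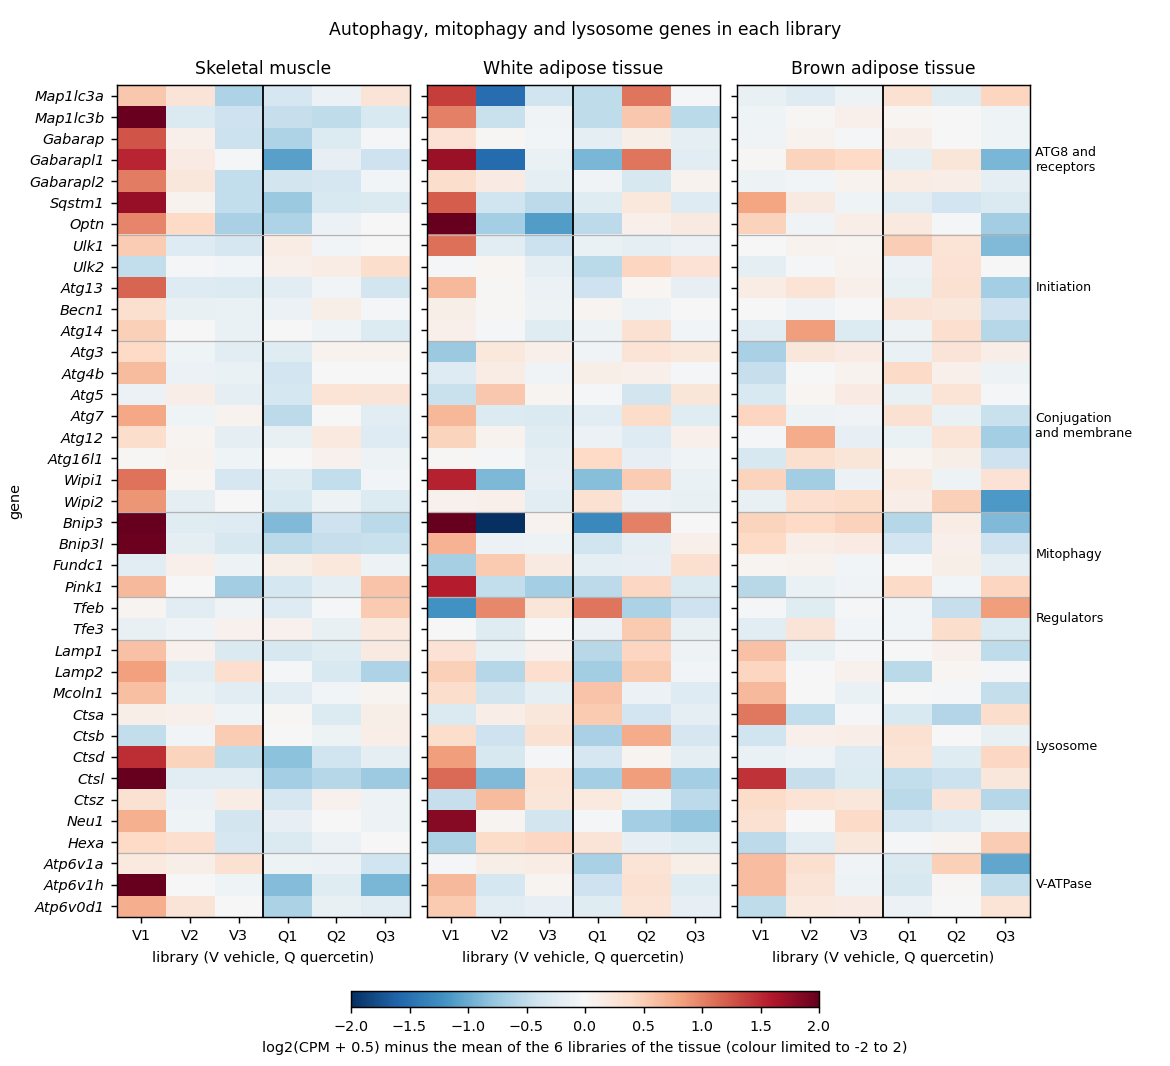
Colour gives log2(CPM + 0.5) of each gene (rows, by role) minus the mean of the 6 libraries of the tissue, for vehicle (V) and quercetin (Q) libraries (columns). The V1 column is red for most genes in muscle, where it is the highest library for 31 of 39, and Q3 is blue for many genes in brown fat.

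In skeletal muscle, genes of the pump and the ATG8 family, Bnip3, Bnip3l and Ctsl were estimated lower under quercetin. For the ATG8 family, Bnip3, Bnip3l, Ctsl and the pump gene Atp6v1h most of that difference lay in 1 vehicle library, vehicle 1. The pump median was -0.70 with and -0.46 without it, but Atp6v1h went from -1.73 to -0.61. Atp6v1h, Ctsl, Gabarapl1, Bnip3 and Atp6v0d1 had the smallest p-values. No gene passed the threshold (edgeR quasi-likelihood, adjusted p under 0.05: 0 of the 39 and 0 of 13562 genes, 0%). At an unadjusted p under 0.05 there were 5 of the 39, all lower, against 132 higher and 274 lower among all genes (0.973% and 2.02%). DESeq2 called 0 genes in muscle. The estimate was below zero for 33 of the 39 genes, with a median of -0.30, where 53.0% of all genes were below zero with a median of -0.034. Without vehicle 1 the count was 23 of 39 and the median -0.076, against 53.0% and -0.023 of all genes. Quercetin and vehicle values did not overlap for 8 of the 39. Of these 7 were lower under quercetin (Gabarapl1, Bnip3, Bnip3l, Ctsl, Atp6v1a, Atp6v1h and Atp6v0d1; 4.26% of all genes) and 1 was higher (Ulk2; 5.11% of all genes). The same 7 were apart without vehicle 1, where 7.03% of all genes were, and Becn1 and Ulk1 joined Ulk2 as higher (7.48%). Without quercetin 2, the library with gland markers, 9 were lower and 1 higher (7.67% and 8.5% of all genes), and 30 of 39 estimates were below zero. The share of all genes below zero is not given for that fit.

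ATG8 proteins and receptors were all estimated lower in muscle, with a median of -0.79 with and -0.16 without vehicle 1, and none passed the test. Gabarapl1 (ENSMUSG00000030161, chr6:129533160-129542346), a GABARAP-type ATG8 protein, stood at 442, 171 and 151 CPM in vehicle 1 to 3 and 72.2, 136 and 115 CPM in quercetin 1 to 3. All 3 quercetin libraries were below all 3 vehicle libraries, with a fold change of -1.25 ± 0.490 (SE, edgeR adjusted p = 0.910) and of -0.57 without vehicle 1. Of its exon length 28.3% lies over the antisense gene 1700101I11Rik, whose reads cannot be told apart where strand was not counted. Map1lc3b, which encodes LC3B, was measured at 1249.9, 262 and 239.8 CPM in vehicle 1 to 3 and 231, 223 and 258 CPM in quercetin 1 to 3. Only vehicle 1 stood out, the other 5 lay from 223 to 262 CPM, and the fold change went from -1.31 ± 0.647 (SE) to -0.076 without it. Sqstm1, which encodes the receptor p62, had 3929.5, 1232 and 835 CPM in vehicle 1 to 3 and 696, 945 and 961 CPM in quercetin 1 to 3. It too was highest in vehicle 1, with overlap between the groups, and gave -1.22 ± 0.591 (SE) with and -0.25 without that library. The others (Map1lc3a, Gabarap, Gabarapl2 and the receptor gene Optn) ranged from -0.79 to -0.19.

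Genes that start and shape the membrane differed less. Among initiation genes the estimates ran from -0.59 (Atg13, the partner of the ULK kinases) to 0.37 (Ulk2), with Ulk1 at 0.0068, Becn1 at -0.039 and Atg14, which directs the lipid kinase to autophagy, at -0.26. The antisense gene Cntd1 lies over 43.9% of the exon length of Becn1, the largest share in the set. Ulk2, the gene whose quercetin values were all higher, had 74.5, 103 and 101 CPM in vehicle 1 to 3 and 112, 116 and 134 CPM in quercetin 1 to 3, an estimate of 0.37 ± 0.268 (SE, edgeR adjusted p = 0.910). The 8 genes of conjugation and membrane binding had a median of -0.23, which was 0.0074 without vehicle 1. Their lowest estimate was that of Wipi1, a reader of the lipid the kinase makes, at -0.66, and their highest that of Atg5, part of the conjugation complex, at 0.13.

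The mitophagy receptors Bnip3 and Bnip3l, the latter coding for NIX, carried the largest differences of their group in muscle. Bnip3 (ENSMUSG00000078566, chr7:138890836-138909519) measured 787, 129.6 and 128 CPM in vehicle 1 to 3 and 82.9, 115 and 105 CPM in quercetin 1 to 3. Every quercetin value was under every vehicle value, and vehicle 1 alone was far above the other 5. The fold change was -1.80 ± 0.721 (SE, edgeR adjusted p = 0.910), and -0.35 without vehicle 1. Antisense genes lie over 22.3% of the exon length of Bnip3 (Gm45507) and 17.3% of that of Sqstm1 (Mrnip), with the same limit. Bnip3l gave -1.39 ± 0.613 (SE) and -0.23 without it. Pink1, the kinase that marks damaged mitochondria, had 1431, 917 and 564 CPM in vehicle 1 to 3 and 711, 801 and 1359.5 CPM in quercetin 1 to 3. Its highest values were in vehicle 1 and quercetin 3, and the estimate of -0.033 ± 0.448 (SE) became 0.37 without vehicle 1. Fundc1, the third receptor, was at 0.15 ± 0.251 (SE). For the master regulator Tfeb the libraries gave 149, 122 and 136 CPM in vehicle 1 to 3 and 119.7, 140.1 and 206 CPM in quercetin 1 to 3, all close but for a high quercetin 3, and 0.18 ± 0.305 (SE); Tfe3 was at 0.088 ± 0.266 (SE).

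All 10 genes of the lysosomal membrane and lumen and all 3 pump genes were estimated lower in muscle under quercetin, with medians of -0.28 and -0.70; without vehicle 1 it was 8 of 10 and 3 of 3, with medians of -0.14 and -0.46. None passed the test. Ctsl (ENSMUSG00000021477, chr13:64359337-64370890), the cysteine protease cathepsin L, had 1349.9, 219 and 217 CPM in vehicle 1 to 3 and 157, 170.3 and 152 CPM in quercetin 1 to 3. Vehicle 1 stood far above the rest, the groups did not overlap, and the fold change of -1.91 ± 0.727 (SE, edgeR adjusted p = 0.910) shrank to -0.44 without it. Other gene models cover 26.8% of its exons. Ctsd, the aspartic protease cathepsin D, stood at 1066, 518 and 269 CPM in vehicle 1 to 3 and 217, 291 and 333 CPM in quercetin 1 to 3. Its groups overlapped, with -1.15 ± 0.511 (SE) and -0.49 without vehicle 1; 34.4% of its exon length is shared with Gm49369 on the same strand, which leaves its counts uncertain. Lamp1, the abundant membrane glycoprotein, measured 549, 389 and 299.6 CPM in vehicle 1 to 3 and 293, 307 and 411 CPM in quercetin 1 to 3, a difference of -0.30 ± 0.345 (SE). The remaining genes (Lamp2, the channel gene Mcoln1, Ctsa, Ctsb, Ctsz, the sialidase gene Neu1 and the hexosaminidase gene Hexa) lay between -0.67 and -0.035.

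The proton pump gave the smallest p of the set. Atp6v1h (ENSMUSG00000033793, chr1:5070018-5162529), a subunit of the cytosolic sector, had 200.04, 46.2 and 43.6 CPM in vehicle 1 to 3 and 24.9, 38.9 and 24.2 CPM in quercetin 1 to 3. Quercetin values were below all vehicle values, with -1.73 ± 0.621 (SE, edgeR adjusted p = 0.910) and a 95% interval of -3.16 to -0.30; it was -0.61 without vehicle 1. Atp6v0d1, a subunit of the membrane sector, measured 108, 77.9 and 65.8 CPM in vehicle 1 to 3 and 41.8, 58.8 and 55.7 CPM in quercetin 1 to 3. These groups were apart as well, by -0.70 ± 0.299 (SE, edgeR adjusted p = 0.910), and -0.46 without vehicle 1. Atp6v1a, the catalytic subunit, was not raised in vehicle 1, and its difference was -0.42 with and -0.42 without it (adjusted p = 0.910 with all 6 libraries).

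**Figure D2:**
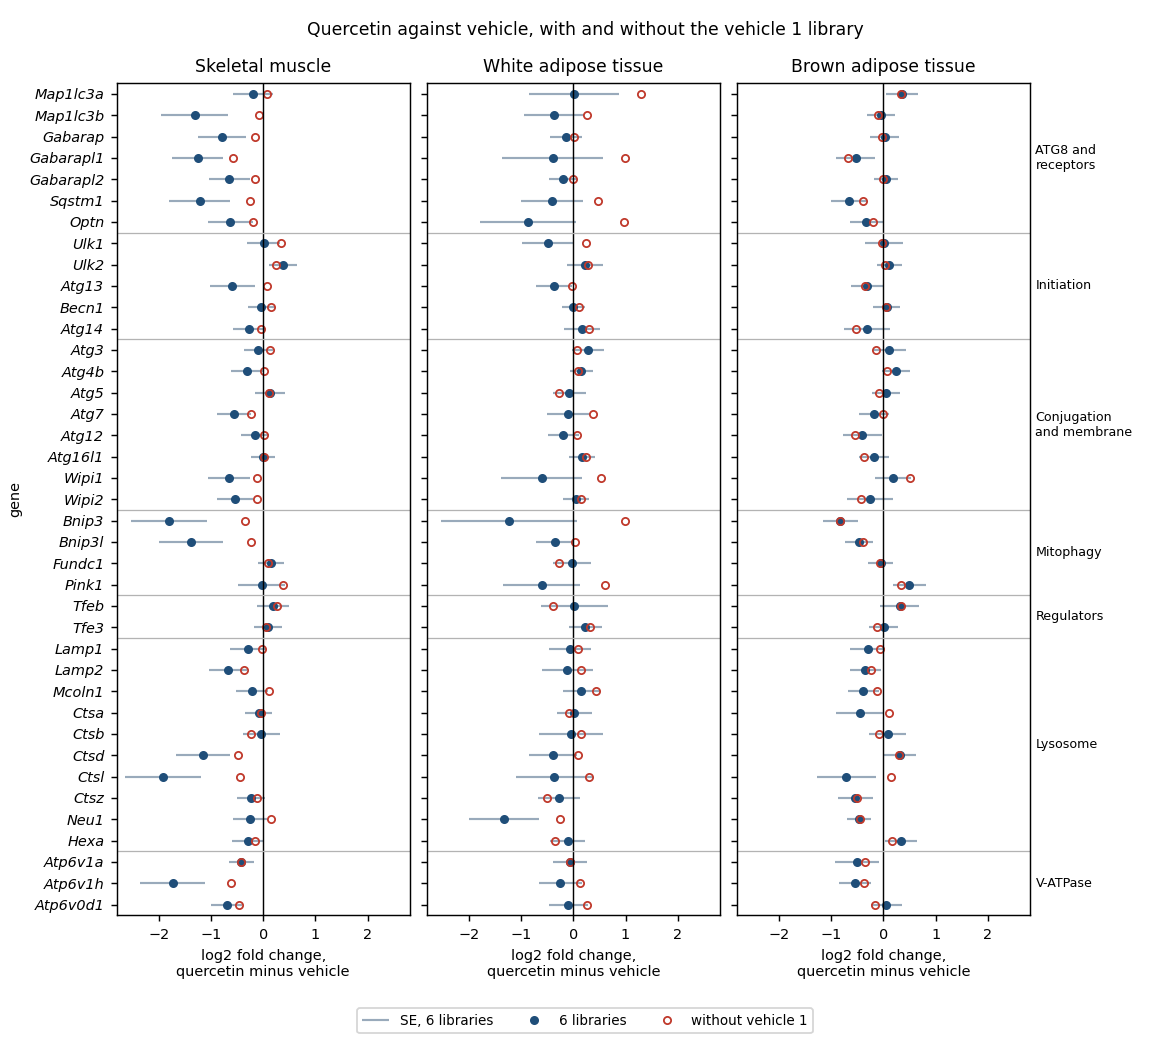
Each row is a gene; the x axis is the log2 fold change, quercetin minus vehicle, with its SE from all 6 libraries of the tissue (filled) and the estimate without vehicle 1 (open). Filled points lie left of zero for 33 genes in muscle, 27 in white fat and 22 in brown fat, and open points for 23, 10 and 28.

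In white adipose tissue most genes of the set were estimated lower under quercetin with vehicle 1 in the comparison, and most were estimated higher without it. Neu1, Bnip3 and Optn had the lowest estimates with all 6 libraries. No gene of the set or of the tissue passed (edgeR, 0 of 39 and 0 of 14919 genes, 0%); DESeq2 called 7 genes, none of the set. At an unadjusted p under 0.05 there were 0 of the 39, and 73 higher and 49 lower among all genes (0.489% and 0.328%). Estimates were below zero for 27 of 39 (median -0.11; all genes 51.5% and -0.014). Without vehicle 1 they were below zero for 10 and above for 29, with a median of 0.14. Within flow cell H7H2WDSXX, 2 vehicle and 2 quercetin libraries, the counts were 19 and 20 and the median 0.012. No gene of the set had separate groups with all 6 libraries (2.51% of all genes were lower and 2.08% higher). Leaving out vehicle 1 separated Ctsz and Hexa as lower (11.4% of all genes) and Atg7, Optn, Sqstm1 and Ulk1 as higher (8.14%). Without vehicle 2, the library lowest in adipocyte markers, 0 were lower and 1, Atg4b, was higher (4.73% and 4.71%), and 28 of 39 estimates were below zero. Shares of all genes below zero are not given here for the white fat fits that left libraries out. The set is therefore not compared with all genes in those fits, and its counts there show no shift of its own.

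The sialidase gene Neu1 (ENSMUSG00000007038, chr17:34931253-34935953) had the smallest p of the set in white fat. It measured 263, 77.3 and 57.1 CPM in vehicle 1 to 3 and 71.9, 46.3 and 42.6 CPM in quercetin 1 to 3. Vehicle 1 was above all others and quercetin 1 lay within the vehicle range, with -1.33 ± 0.672 (SE, edgeR adjusted p = 0.9998) and -0.26 without vehicle 1. Atg13 stood at 55.7, 35.7 and 32.4 CPM in vehicle 1 to 3 and 26.3, 36.1 and 31.6 CPM in quercetin 1 to 3, a difference of -0.37 ± 0.342 (SE) that was -0.033 without vehicle 1. Ulk1, its kinase partner, had 76.7, 30.2 and 26.2 CPM in vehicle 1 to 3 and 32.0, 30.7 and 32.5 CPM in quercetin 1 to 3. Here 5 of the 6 libraries were alike, and the sign of -0.48 ± 0.492 (SE) turned to 0.25 without vehicle 1. Optn gave 106, 15.7 and 11.5 CPM in vehicle 1 to 3 and 17.7, 27.5 and 29.1 CPM in quercetin 1 to 3. Quercetin values lay above vehicle 2 and 3 and below vehicle 1, so that -0.87 ± 0.919 (SE) became 0.96.

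Mitophagy and ATG8 genes varied widely between single white fat libraries. Bnip3 ran over 393, 9.96 and 61.9 CPM in vehicle 1 to 3 and 23.9, 119 and 58.5 CPM in quercetin 1 to 3. Its lowest value was in vehicle 2, where adipocyte markers were lowest, and its highest in vehicle 1, where they were highest; the part of cell content was not tested. The estimate was -1.23 ± 1.31 (SE), and 0.98 without vehicle 1. Gabarapl1 followed a like order, with 241, 24.6 and 66.1 CPM in vehicle 1 to 3 and 38.1, 153 and 61.7 CPM in quercetin 1 to 3 and an estimate of -0.40 ± 0.964 (SE), or 0.98 without vehicle 1. Bnip3l measured 135, 76.3 and 77.4 CPM in vehicle 1 to 3 and 62.9, 72.3 and 88.3 CPM in quercetin 1 to 3, an estimate of -0.35 ± 0.371 (SE) that was 0.037 without vehicle 1. The groups overlapped and only vehicle 1 stood out. For Pink1 the values were 315, 74.9 and 65.5 CPM in vehicle 1 to 3 and 72.9, 141 and 86.5 CPM in quercetin 1 to 3, giving -0.60 ± 0.740 (SE) with and 0.61 without vehicle 1. Map1lc3b had 250.4, 91.4 and 119 CPM in vehicle 1 to 3 and 87.3, 181 and 85.2 CPM in quercetin 1 to 3 and a difference of -0.37 ± 0.571 (SE). Quercetin 2 was the highest library after vehicle 1 for Bnip3, Gabarapl1, Pink1 and Map1lc3b, and these are the libraries of the other flow cell. Sqstm1 stood at 487, 161 and 146 CPM in vehicle 1 to 3 and 178, 245 and 176 CPM in quercetin 1 to 3, with -0.41 ± 0.596 (SE) and 0.47 without vehicle 1.

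Tfeb ran the other way across white fat. Its libraries gave 23.7, 108 and 65.2 CPM in vehicle 1 to 3 and 116, 35.4 and 41.1 CPM in quercetin 1 to 3. The lowest values were in vehicle 1 and quercetin 2 and the highest in vehicle 2 and quercetin 1, where B cell markers were at 2420.3 and 2954 CPM; the part of lymphocyte RNA was not tested. The estimate was 0.021 ± 0.647 (SE). Among lysosome genes Ctsl measured 600.2, 148 and 331 CPM in vehicle 1 to 3 and 171, 491 and 172 CPM in quercetin 1 to 3, an overlap of the groups with -0.36 ± 0.732 (SE). Ctsd had 517, 232 and 282 CPM in vehicle 1 to 3 and 229, 299 and 252 CPM in quercetin 1 to 3 (-0.39 ± 0.456, SE), and Lamp1 249.9, 183 and 217 CPM in vehicle 1 to 3 and 138, 276 and 189.6 CPM in quercetin 1 to 3 (-0.071 ± 0.401, SE). The pump gene Atp6v1h gave 84.6, 41.7 and 55.7 CPM in vehicle 1 to 3 and 40.0, 66.1 and 45.3 CPM in quercetin 1 to 3 and -0.25 ± 0.410 (SE). For these the quercetin and vehicle ranges overlapped. Over the other 24 genes of the set in white fat, estimates ran from -0.60 (Wipi1) to 0.29 (Atg3).

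**Figure D3:**
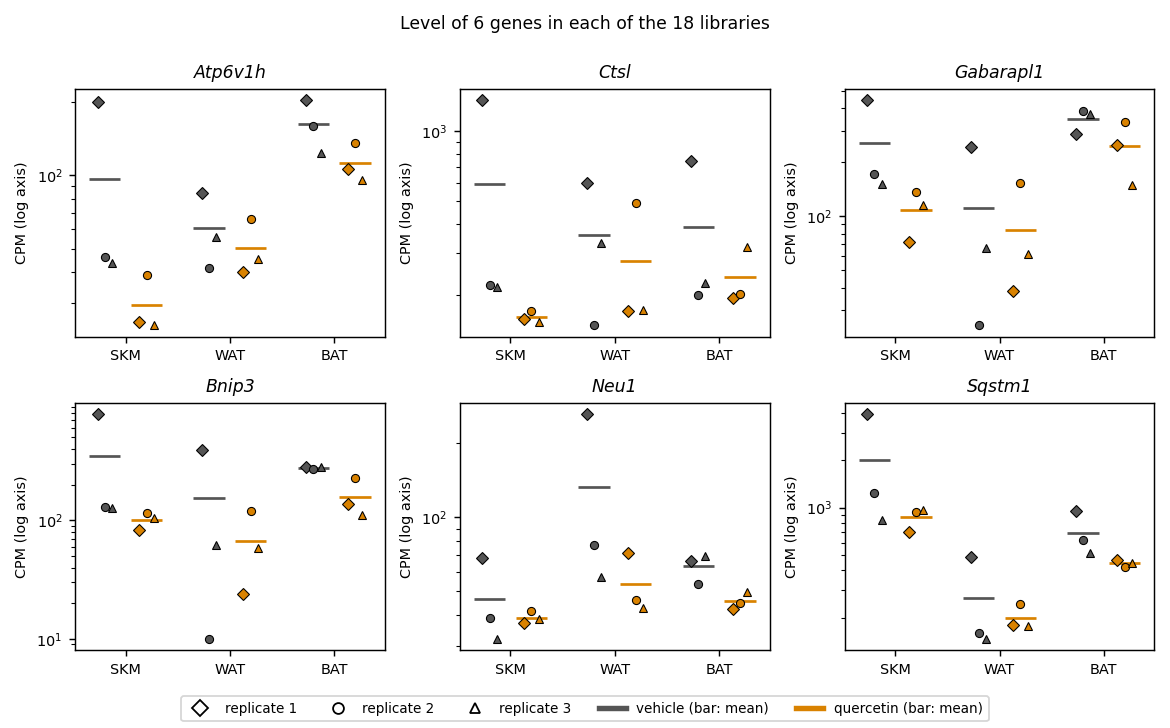
CPM (log axis) of 6 genes in every library, by tissue, arm (grey vehicle, orange quercetin) and replicate number (symbol); bars are means of 3. The grey diamonds of vehicle 1 are the highest library for all 6 genes in muscle and in white fat, while Bnip3 in brown fat has 3 vehicle values from 271 to 283 CPM above all 3 quercetin values.

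In brown adipose tissue the mitophagy receptors, Neu1 and Sqstm1 were estimated lower under quercetin and Pink1 higher, with log2 differences from -0.83 to 0.50. Of the 22 genes estimated lower, 20 were also lower without vehicle 1, while 8 of the 17 estimated higher turned lower. No gene passed (edgeR, 0 of 39 and 0 of 13274 genes, 0%), with 1 of the 39 at an unadjusted p under 0.05, lower, and 108 higher and 133 lower among all genes (0.814% and 1%). DESeq2 called 2 genes, none of the set. Estimates were below zero for 22 of 39 with a median of -0.18, where 45.1% of all genes were and the median was 0.051. Without vehicle 1 it was 28 of 39 and -0.11. Without quercetin 3, the library with muscle markers, it was 22 of 39 and -0.040. The shares of all genes below zero are not given here for these 2 fits. The set is therefore not compared with all genes in them, and its counts there show no shift of its own. Quercetin values were below all vehicle values for Bnip3, Bnip3l, Neu1 and Sqstm1 (4 of 39; 2.86% of all genes) and above them for Pink1 (1 of 39; 3.17%). Those 4 and Pink1 were also apart without vehicle 1, joined by Atg16l1 and Gabarapl1 as lower and Wipi1 as higher (5.2% and 6.58% of all genes). They were apart without quercetin 3 too, where Atg4b, Becn1, Gabarapl2 and Ulk1 joined Pink1 (9% lower and 10.7% higher over all genes).

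In the mitophagy group, Bnip3 measured 280.0, 271 and 283 CPM in vehicle 1 to 3 and 138, 226 and 111 CPM in quercetin 1 to 3. The vehicle libraries were close together and the quercetin libraries spread below them, by -0.83 ± 0.336 (SE, edgeR adjusted p = 0.977); the estimate was -0.84 without vehicle 1 and -0.63 without quercetin 3. Bnip3l stood at 152, 126 and 129 CPM in vehicle 1 to 3 and 88.4, 123 and 86.2 CPM in quercetin 1 to 3. Its groups were apart by a narrow margin, at -0.46 ± 0.266 (SE, edgeR adjusted p = 0.977). Pink1 went the other way, with 254, 343 and 357 CPM in vehicle 1 to 3 and 488, 361 and 505 CPM in quercetin 1 to 3, where all quercetin values were above all vehicle values, quercetin 2 by little, at 0.50 ± 0.314 (SE). Fundc1 differed little, at -0.054 ± 0.237 (SE).

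The receptor gene Sqstm1 had 946, 619.9 and 515 CPM in vehicle 1 to 3 and 464, 419 and 447 CPM in quercetin 1 to 3 in brown fat. All vehicle values were higher, with the widest gap to vehicle 1, and the estimate was -0.66 ± 0.340 (SE, edgeR adjusted p = 0.977), or -0.39 without that library. Gabarapl1 measured 287, 388 and 372 CPM in vehicle 1 to 3 and 248, 336 and 149 CPM in quercetin 1 to 3. Vehicle 1 fell among the quercetin values and quercetin 3 was lowest, at -0.53 ± 0.369 (SE). LC3B differed little: Map1lc3b had 283, 304 and 322 CPM in vehicle 1 to 3 and 308, 297 and 283 CPM in quercetin 1 to 3 and -0.045 ± 0.262 (SE), with a 95% interval of -0.66 to 0.57. For Tfeb the libraries gave 43.9, 37.7 and 43.6 CPM in vehicle 1 to 3 and 42.9, 32.4 and 80.2 CPM in quercetin 1 to 3. Only quercetin 3 was high, the library with 33762 CPM of muscle markers, and 0.31 ± 0.369 (SE) became -0.16 without it.

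Of the lysosome genes, Neu1 had 66.3, 53.5 and 69.7 CPM in vehicle 1 to 3 and 42.5, 44.7 and 49.9 CPM in quercetin 1 to 3. The groups were apart by -0.47 ± 0.228 (SE, edgeR adjusted p = 0.977), and leaving out any 1 library kept the estimate between -0.55 and -0.42. Ctsl stood at 741, 199 and 225 CPM in vehicle 1 to 3 and 193, 201 and 318 CPM in quercetin 1 to 3. Vehicle 1 alone was high, and the sign of -0.71 ± 0.559 (SE) turned to 0.14 without it; that library also had 955 CPM of Trim63 and Fbxo32, against 14.7 to 400.3 in the other BAT libraries, and 5273 CPM of muscle markers, second to quercetin 3. The part of muscle RNA was not tested. Ctsd measured 579.5, 604 and 531 CPM in vehicle 1 to 3 and 762, 534 and 845 CPM in quercetin 1 to 3 (0.31 ± 0.324, SE), and Lamp1 591, 359 and 381 CPM in vehicle 1 to 3 and 394, 417 and 277 CPM in quercetin 1 to 3 (-0.30 ± 0.336, SE). Both overlapped between the groups. The pump gene Atp6v1h had 203, 159 and 124 CPM in vehicle 1 to 3 and 106, 135 and 95.1 CPM in quercetin 1 to 3, with quercetin 2 inside the vehicle range and an estimate of -0.54 ± 0.303 (SE, edgeR adjusted p = 0.977). Over the other 26 genes in brown fat the estimates ran from -0.54 (Ctsz) to 0.35 (Map1lc3a).

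Whether the quercetin effect differed between tissues was tested by an interaction term over all 18 libraries. It passed for 0 of the 39 and 0 of 16388 genes (0%) in each of the 3 tissue pairs by edgeR. DESeq2 called 13 genes for BAT against WAT, 2 for BAT against SKM and 7 for WAT against SKM, none of the set. At an unadjusted p under 0.05, 0, 1 and 0 of the 39 were found in these pairs. The smallest p was that of Ctsd, for which the effect in BAT minus that in SKM was 1.40 ± 0.634 (SE, edgeR adjusted p = 0.9999). With all libraries, Bnip3 was estimated lower under quercetin in each tissue. Its effect in BAT minus that in SKM was 0.92. The 95% interval of -1.93 to 3.77 was too wide to tell whether the tissues differ. Without vehicle 1 the Bnip3 estimate was -0.35 in SKM and -0.84 in BAT, but 0.98 in WAT, where the sign turned.

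A list of 102 other genes of the pathway was counted in the same way, and 0 passed in any tissue by edgeR. In muscle 58 of the 100 tested were estimated lower (median -0.097; 52 of 102 without vehicle 1), in white fat 69 of 101 (median -0.079; 46 without vehicle 1) and in brown fat 60 of 102 (median -0.080; 58 without vehicle 1). These stand beside the shares of all genes below zero given above for each tissue. Without vehicle 1 that share is given for muscle only. Unadjusted p was under 0.05 for 2, 0 and 1 of them, all lower. The smallest p in muscle belonged to Rragc, a GTPase through which amino acids recruit mTORC1 to the lysosome, with 68.1, 48.2 and 43.9 CPM in vehicle 1 to 3 and 26.4, 39.2 and 26.3 CPM in quercetin 1 to 3. Its groups were apart by -0.81 ± 0.303 (SE, edgeR adjusted p = 0.910). Next was Atp6ap2, an accessory subunit of the V-ATPase, with 54.6, 57.2 and 51.8 CPM in vehicle 1 to 3 and 36.8, 38.1 and 35.4 CPM in quercetin 1 to 3. It differed by -0.57 ± 0.231 (SE, edgeR adjusted p = 0.910), and by -0.56 without vehicle 1, with separate groups either way. Cd63, a lysosomal tetraspanin, followed at -0.80. In white fat the leading genes were Cln3 at 0.48, the factor gene Foxo3 at -0.47 and the acid lipase gene Lipa at -1.44, which was -0.26 without vehicle 1. Foxo3 had 58.9, 61.5 and 57.3 CPM in vehicle 1 to 3 and 45.4, 33.0 and 47.8 CPM in quercetin 1 to 3, a difference of -0.47 ± 0.239 (SE, edgeR adjusted p = 0.9998) with separate groups. In brown fat they were Fnip1 at -1.13, Rb1cc1 at -0.75 and Gusb at -0.47. Rb1cc1, which encodes the scaffold of the ULK complex, stood at 68.1, 74.8 and 64.3 CPM in vehicle 1 to 3 and 32.0, 63.8 and 29.4 CPM in quercetin 1 to 3, a narrow separation of -0.75 ± 0.346 (SE, edgeR adjusted p = 0.977).

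Between tissues, unlike between arms, genes of the set passed the test. Ctsz and, less firmly for white fat, Ctsb were higher in both fats than in muscle. Pink1 and Sqstm1 were lower in both, each less firmly for brown fat. The ATG8 genes had their lowest means over all libraries in white fat, though Gabarap and Gabarapl1 did not pass against muscle. In quercetin libraries alone, which leave out vehicle 1, the Gabarap mean was 184 CPM in muscle and 197 CPM in white fat. These contrasts used the mean of both arms in a fit of all 18 libraries and were tested over 16388 genes. Within white fat, Map1lc3a was at 189 and 152 CPM in vehicle 1 and quercetin 2, the libraries low in B cell markers. It was at 24.7 to 70.4 CPM in the others. Gabarapl1 (241 and 153 against 24.6 to 66.1) and Pink1 (315 and 141 against 65.5 to 86.5) did likewise. Gabarapl2 did not (44.2 and 27.6 against 29.9 to 38.6). Cell content and flow cell cannot be told apart in these levels. Per kilobase of exon, the scale on which genes can be compared, the highest genes of the set in muscle were Sqstm1 (427 ± 368 CPM per kb, mean ± SD, n = 6), Map1lc3a (402 ± 115) and Pink1 (361 ± 133). In white fat they were Ctsz (253 ± 78.9), Ctsb (212 ± 79.5) and Ctsd (128 ± 46.4), and in brown fat the same 3 genes, at 374 ± 101, 324 ± 52.4 and 273 ± 55.5. Intervals of 1 SD around neighbouring means overlapped in each of these orders. In the 3 quercetin libraries of muscle alone, which leave out vehicle 1, Map1lc3a was at 377 ± 80.0, Pink1 at 358 ± 131 and Sqstm1 at 258 ± 44.3 CPM per kb. The lowest in muscle was Tfe3 (2.04 ± 0.208), and in white and brown fat Atg14 (2.03 ± 0.291 and 3.80 ± 1.52).

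**Figure D4:**
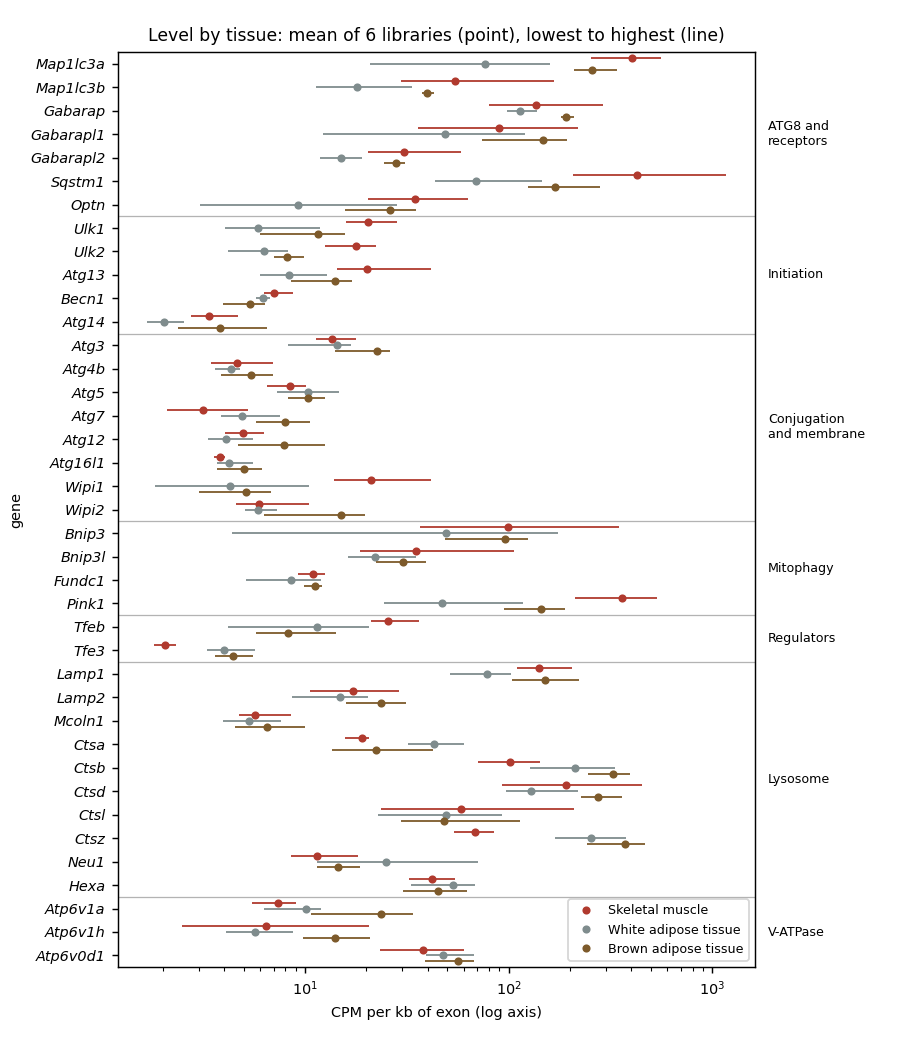
CPM per kb of exon (log axis) of each gene in the 3 tissues; points are means of 6 libraries of both arms and lines run from the lowest to the highest library. With the vehicle 1 libraries included, the means of ATG8 genes and Pink1 lie lowest in white fat, and those of Ctsz and Ctsb lie lowest in muscle.

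Brown against white fat gave 19 of the 39 higher and 1 lower (edgeR, adjusted p under 0.05), where 18.3% of all genes tested were higher and 22% lower. The median over the set was 0.64 and over all genes -0.13. All 7 ATG8 and receptor genes rose, 2 of 3 pump genes, 4 of 8 of conjugation and membrane binding, 3 of 5 of initiation, 1 of 4 of mitophagy and 2 of 10 lysosome genes, while no change passed for Tfeb or Tfe3. Not all of these calls were firm. Without the 3 libraries that held markers of another tissue, Map1lc3b, Gabarap, Sqstm1, Atg13, Atg7 and Ctsd lost theirs. Of 18 fits that left out 1 library each, 8 lost Map1lc3b, 8 Atg13, 8 Atg7 and 6 Gabarap. Another 4 gene calls were lost less often, with Atg3 lost in 4 fits, Gabarapl1 in 3, Sqstm1 in 2 and Atg14 in 1. Fits that left out a muscle library kept all 20 calls, so every loss came with a BAT or WAT library left out. The counts were 23 and 1 without the 3 vehicle 1 libraries and 14 and 1 without the 3 libraries that held markers of another tissue. With the flow cell as a covariate they were 22 and 1, and the median over the set was 0.87. With vehicle libraries alone, 9 libraries, 2 passed (Wipi2 and Atp6v1a, both higher; 5.55% of all genes were higher and 4.36% lower), and with quercetin libraries alone 9 higher and 1 lower (11.6% and 8.38%). Map1lc3a, the LC3A gene, showed the largest rise. Its lowest, median and highest level was 248, 272 and 399.9 CPM in BAT and 24.7, 62.4 and 189 in WAT, so the tissues did not overlap, with a difference of 1.70 ± 0.430 (SE, adjusted p = 0.00616). Pink1 had 254, 359 and 505 CPM in BAT and 65.5, 80.7 and 315 in WAT, where white vehicle 1 reached into the brown range, and 1.60 ± 0.403 (SE, adjusted p = 0.00611). Gabarapl1 stood at 149, 312 and 388 CPM against 24.6, 63.9 and 241, with overlap and 1.57 ± 0.507 (SE, adjusted p = 0.0221); it lost the call without WAT vehicle 3 (adjusted p = 0.0517), WAT quercetin 1 (0.0518) or BAT quercetin 2 (0.0506). The one gene that fell was Ctsa, the carboxypeptidase that protects the sialidase, with 64.1, 86.0 and 201 CPM in BAT and 151, 194 and 284 in WAT, where brown vehicle 1 reached into the white range, by -0.99 ± 0.260 (SE, adjusted p = 0.00762). The antisense genes Pltp and Neurl2 lie over 17.4% of the exon length of Ctsa, and antisense Fdft1 over 12.8% of that of Ctsb. Their reads cannot be told apart where strand was not counted.

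Brown fat against muscle gave 10 higher and 5 lower, beside 13.9% and 13.3% of all genes, with a median of 0.19. All 3 pump genes rose (Atp6v0d1 and Atg12 not with RLE scaling), as did Atg3, Atg7, Atg12 and Wipi2 of conjugation and membrane binding, Ctsb, Ctsz and Tfe3. Sqstm1, Ulk2, Wipi1, Pink1 and Tfeb fell. The calls of Sqstm1 and Atp6v0d1 were lost without the 3 libraries that held markers of another tissue, that of Sqstm1 also without SKM vehicle 1 and in 8 of the 18 fits that left out 1 library, and that of Atp6v0d1 in 14 of those fits, without the filter and with the replicate block. Atg12 lost its call in 9 of them. The counts were 14 and 5 without the 3 vehicle 1 libraries and 9 and 4 without the 3 libraries that held markers of another tissue, and 3 and 0 with vehicle libraries alone (2.25% and 3.74% of all genes). Quercetin libraries alone gave 10 and 2 (7.72% and 6.63%). Ctsz, the cysteine protease cathepsin Z, rose most: its lowest, median and highest level was 349, 614 and 672 CPM in BAT and 77.5, 97.6 and 121 in SKM, a difference of 2.43 ± 0.247 (SE, adjusted p = 2.89e-05). No library of one tissue reached the range of the other. Atp6v1a stood at 64.4, 147 and 204 CPM against 33.0, 44.2 and 54.4, also without overlap (1.69 ± 0.251, SE, adjusted p = 0.000283). Ctsb had 1475, 2009 and 2386 CPM against 428, 593 and 863 and differed by 1.68 ± 0.317 (SE, adjusted p = 0.00143). Lower in brown fat were Wipi1, at 13.3, 22.8 and 29.9 CPM against 61.2, 77.4 and 182 (-1.998 ± 0.406, SE, adjusted p = 0.00230), and Tfeb, at 32.4, 43.2 and 80.2 CPM against 119.7, 138 and 206 (-1.64 ± 0.362, SE, adjusted p = 0.00373). Tfeb and its relative Tfe3 went opposite ways, Tfe3 being higher in BAT by 1.12 ± 0.190 (SE, adjusted p = 0.000708). Pink1 was lower in brown fat too, at 254, 359 and 505 CPM against 564, 859 and 1431 (-1.34 ± 0.400, SE, edgeR adjusted p = 0.0212). It lost the call without SKM vehicle 1 (edgeR adjusted p = 0.0522), SKM quercetin 3 (0.059) or BAT quercetin 2 (0.0502). The call was also lost with vehicle libraries alone (edgeR adjusted p = 0.189) and with quercetin libraries alone (0.0876).

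White fat against muscle gave 6 higher and 13 lower, beside 28.6% and 21.7% of all genes. The median over the set was -0.19, against 0.24 over all genes. Lower in white fat were 5 of 7 ATG8 and receptor genes and 4 of 5 initiation genes (all but Becn1), while 4 of 10 lysosome genes were higher and 1, Lamp1, was lower. Of the 18 fits that left out 1 library, 6 lost the call of Atg14, 6 that of Atg7 and 4 that of Neu1. Fits that left out a BAT library kept all 19 calls, so every loss came with a WAT or SKM library left out. Atg14 also lost its call without the 3 libraries that held markers of another tissue. The counts were 7 and 15 without the 3 vehicle 1 libraries and 6 and 12 without the 3 libraries that held markers of another tissue, and 2 and 6 with vehicle libraries alone (9.6% and 11.6% of all genes). Quercetin libraries alone gave 3 and 10 (15.6% and 16.7%). Pink1 had the lowest estimate. Its lowest, median and highest level was 65.5, 80.7 and 315 CPM in WAT and 564, 859 and 1431 in SKM, with no overlap and -2.94 ± 0.423 (SE, adjusted p = 8.47e-05). Sqstm1 followed, with 146, 177 and 487 CPM against 696, 953 and 3929.5 (-2.49 ± 0.417, SE, adjusted p = 0.000253), and Map1lc3a, with 24.7, 62.4 and 189 against 299.9, 486 and 664 (-2.36 ± 0.440, SE, adjusted p = 0.000530). Cathepsins made up the upper end. Ctsz stood at 242, 364 and 544 CPM against 77.5, 97.6 and 121 (1.89 ± 0.242, SE, adjusted p = 3.80e-05), and Ctsa at 151, 194 and 284 against 74.4, 93.8 and 97.1 (1.18 ± 0.261, SE, adjusted p = 0.00178). Ctsb was at 774, 1222 and 2012 CPM against 428, 593 and 863, with overlap and 1.07 ± 0.313 (SE, adjusted p = 0.0104). It lost the call with vehicle libraries alone (edgeR adjusted p = 0.143) and with quercetin libraries alone (edgeR adjusted p = 0.108). Macrophages express cathepsins strongly, and their summed markers were 1122 to 2539 CPM in WAT, 143 to 849 in SKM and 295 to 1049 in BAT; their part in the cathepsin levels was not tested.

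The 102 other pathway genes gave 35 higher and 19 lower for BAT against WAT, 23 and 13 for BAT against SKM, and 31 and 25 for WAT against SKM, beside the shares of all genes given above for each contrast. Of the 33 lysosome genes on that list, 23 were higher and 2 lower in white fat than in muscle, and 15 were lower and 3 higher in brown than in white fat. Of the 17 regulators, which include mTORC1 and FoxO genes, 11 were higher in brown than in white fat and none lower. Of the 8 mitophagy genes, 6 were higher in brown than in white fat and none lower.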

How the data were processed

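The authors deposited 1 file of raw, not normalized read counts by Ensembl gene for each library. RNA was extracted with TRIzol and libraries were made with a NEBNext Ultra kit, per the labels' protocols. HISAT2, HTSeq and DESeq2 with build mm10 are named in the submitters' processing notes. No label or header names the annotation release or strand setting. The 5 summary lines of each file name no gene and were left out; reads assigned to no feature were 2.53% to 9.11% of a library and ambiguous reads 6.47% to 9.84%. Total counts were 8436308 to 12311345, and no pair of replicates differed by as little as counting noise (lowest chi-square per degree of freedom 27.0).

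Quercetin was compared with vehicle in each tissue with edgeR 4.0.16 (quasi-likelihood test, two-sided, TMM factors, low genes removed by filterByExpr at min.count 10 and min.total.count 15, Benjamini-Hochberg adjustment over all genes tested, threshold 0.05) in R 4.3.3. Tissue contrasts and interactions came from 1 fit of all 18 libraries in 6 groups. That fit treated the libraries as independent. Libraries with the same number in different tissues may come from the same mouse, which their titles do not say. CPM used TMM factors over the 18 libraries, and CPM per kb the union exon length of each gene. Alternatives were DESeq2 1.42.0, RLE factors, no filter, limma 3.58.1 voom with library weights, a replicate block, the flow cell, and libraries left out; scripts were tested on simulated data. Motifs were searched in RefSeq windows of GRCm38.p6. The smallest exact p for 3 against 3 libraries is 0.1, so single genes were tested in the fit across genes.

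The 39 genes, the marker and pathway lists and the tests were chosen with earlier results of these data known. Values in every library are given for the 5 genes with the smallest p in each tissue and for a panel of 10 (Map1lc3b, Gabarapl1, Sqstm1, Bnip3, Pink1, Tfeb, Ctsl, Ctsd, Lamp1, Atp6v1h). Between tissues, up to 3 genes with the largest called difference in each direction are named, and of the other pathway genes the 3 with the smallest p in each tissue. Ulk2, Fundc1, Tfe3 and Atp6v1a were added after their values were seen.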

Additional observations from a re-analysis of the deposited data

How the results depend on the processing

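No gene of the set passed for quercetin under any alternative run. Over all genes, muscle gave 32 calls without the filter on low counts, DESeq2 gave 7 in white fat and 2 in brown fat, and leaving out 1 library gave 0 to 1 in brown fat. For the interaction DESeq2 gave 13 (BAT against WAT), 2 (BAT against SKM) and 7 (WAT against SKM). Tissue calls fell with 9 libraries, which is fewer samples: vehicle libraries alone gave 1442 genes and 2 of the set (BAT against WAT), 871 and 3 (BAT against SKM) and 3091 and 8 (WAT against SKM). Quercetin libraries alone, added after seeing the data, gave 2965 genes and 10 of the set, 2130 genes and 4786 genes.

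Of all 39 genes, 10 of the 33 estimated lower in muscle and 19 of the 27 in white fat turned without vehicle 1, and 2 of the 22 in brown fat. Of the genes estimated higher, 0 of 6 turned in muscle, 2 of 12 in white fat and 8 of 17 in brown fat. For genes with values in every library, signs that turned are given here; the cause was not tested. With limma voom and library weights the log2 change was 0.12 for Pink1 in muscle; Ulk1 0.27, Bnip3l 0.13, Optn 1.15, Gabarapl1 0.11, Sqstm1 0.27, Bnip3 0.19, Pink1 0.37 and Tfeb -0.53 in white fat; and Tfeb -0.0089 and Lamp1 0.0084 in brown fat. Within flow cell H7H2WDSXX, white fat gave Ulk1 0.22, Optn 0.81, Gabarapl1 0.15, Sqstm1 0.23, Bnip3 0.21, Pink1 0.21 and Tfeb -0.12. Leaving out 1 library moved, in muscle, Pink1 from -0.37 to 0.37 and Tfeb from -0.066 to 0.33; in white fat, Ulk1 from -0.76 to 0.25, Bnip3l from -0.53 to 0.037, Optn from -1.33 to 0.96, Map1lc3b from -0.88 to 0.25, Gabarapl1 from -1.21 to 0.98, Sqstm1 from -0.70 to 0.47, Bnip3 from -1.98 to 0.98, Pink1 from -0.99 to 0.61, Tfeb from -0.67 to 0.51, Ctsl from -1.13 to 0.30, Ctsd from -0.64 to 0.096, Lamp1 from -0.42 to 0.16 and Atp6v1h from -0.54 to 0.13; and in brown fat, Ctsl from -0.99 to 0.14, Map1lc3b from -0.11 to 0.0015 and Tfeb from -0.16 to 0.57.

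Replicate numbers did not pair vehicle and quercetin libraries: deviations of equal numbers correlated at -0.011, -0.129 and -0.233 in muscle, -0.647, -0.71 and 0.238 in white fat and -0.168, 0.259 and -0.029 in brown fat. With the number as a block no gene of the set passed for quercetin, Pink1 in muscle was 0.0052, and Optn and Tfeb in white fat were 0.051 and -0.039. With arm and number as a block the set gave 21 higher and 1 lower (BAT against WAT), 9 higher and 6 lower (BAT against SKM) and 6 higher and 13 lower (WAT against SKM). With 3 libraries a group, large changes can go uncalled. In counts simulated from the means and spread of these libraries, the fit called few genes that were changed 4-fold. It called 3 of 100 in muscle, 0 of 100 in white fat and 0 of 100 in brown fat. Across tissues, equal numbers correlated at 0.253, 0.148 and 0.273 (BAT and SKM), 0.155, 0.28 and 0.291 (WAT and SKM) and 0.14, 0.0832 and 0.194 (BAT and WAT) in vehicle libraries, and at -0.154 to 0.184 in quercetin libraries. Unequal numbers across tissues correlated at -0.311 to 0.135 in vehicle libraries and at -0.207 to 0.15 in quercetin libraries. Whether equal numbers mark the same mouse was not tested.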
